A study of Mus musculus with 2 samples.

Results

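The probes described here were designed on mouse cDNA clones: their target on the array is a GenBank clone accession of the form AK followed by digits, placed on chromosomes 1 to 19, and not a RefSeq transcript. There were 6700 such clone probes among 41174 gene probes. The choice used only the accession and the position, and no measured value. They were set against the 26092 probes on the same chromosomes whose target is a curated RefSeq mRNA, called NM_ probes after the prefix of their accessions. After spots with an outlier flag were left out, 6696 clone probes of 6624 accessions and 26083 NM_ probes remained; 4 clone probes had no usable spot.

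The arrays measured RNA of cultured mouse hepatoblasts, the progenitors of hepatocytes and bile duct cells, from liver of strain C57BL/6. Both cultures were kept in the same medium with epidermal growth factor, CHIR99021 (which blocks the kinase GSK3), E-616452 (which blocks the TGF-beta type I receptor) and the lipid mediators LPA and S1P, on Matrigel or laminin. One culture was taken at passage 5 and the other at passage 20, with 1 array each, and the labels say that independent experiments gave them. Passage thus cannot be told apart from experiment, no difference below has a replicate check, and no p-value is given; the sex and age of the animals of origin are not given in the sources used here.

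Clones of this kind come from the large mouse full-length cDNA collections, in which RNA of many tissues and stages was copied from the poly(A) tail and sequenced. Such collections hold known mRNAs, alternative transcript ends, long non-coding RNAs, antisense RNAs, and copies of introns of known genes, and a clone with no recognisable coding sequence was described as unclassifiable. Probes for curated mRNAs usually lie near the 3′ end of the transcript, whereas a clone can end anywhere in or near a gene. The labelling kit also primes from the poly(A) tail, and its product keeps the strand.

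The label of these probes holds by accession and less so by name. None of the 6696 listed a RefSeq accession (0 probes). The gene name on the array was the bare accession for 3177, while 2436 carried a symbol that the RefSeq table of GRCm38.p6 holds and 199 an older form of one. Of the symbols found, 2255 belonged to protein-coding genes and 336 to long non-coding RNA genes. A total of 1949 probes lay on the same strand as an NM_ probe of the same name.

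The probes on which the results turn are shown as the array's own sequences of about 60 bases, 5′ to 3′, with positions in mouse build mm9. Capitals mark AATAAA, the commonest signal for poly(A) addition. The first 5 clones had some of the largest differences or bounds and lie far from the nearest NM_ probe on their strand. AK045692 lies at chr14:102295384-102295443 (plus strand), AK036508 of Nr2c2 at chr6:92055914-92055972 (plus), AK051853 of Sipa1l1 at chr12:83499075-83499134 (plus), AK049762 at chr9:41394177-41394236 (plus) and AK052336 of Sorbs2 at chr8:46873111-46873170 (plus).
AK045692: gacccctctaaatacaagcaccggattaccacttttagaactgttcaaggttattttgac
AK036508: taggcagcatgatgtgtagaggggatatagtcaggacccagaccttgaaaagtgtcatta
AK051853: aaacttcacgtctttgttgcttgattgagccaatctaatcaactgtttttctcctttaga
AK049762: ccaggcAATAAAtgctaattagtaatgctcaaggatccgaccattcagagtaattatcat
AK052336: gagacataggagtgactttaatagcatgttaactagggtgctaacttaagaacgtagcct

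The next sequences belong to groups of neighbouring clone probes that were all higher at passage 20. Of these, 3 probes lie along Mbnl1, which encodes a muscleblind splicing regulator: AK088871 at chr3:60335480-60335539, AK084349 at chr3:60345599-60345658 and AK038242 at chr3:60422635-60422694, all on the plus strand. Another 2 lie in clone AK017529 of Sf3b3, a subunit of the spliceosome's U2 particle, at chr8:113369272-113369331 and chr8:113370141-113370200 on the minus strand. The last 2 lie in clones of Airn, the imprinted non-coding RNA antisense to Igf2r, AK032756 at chr17:12944037-12944096 and AK048015 at chr17:12957757-12957816 on the plus strand.
AK088871: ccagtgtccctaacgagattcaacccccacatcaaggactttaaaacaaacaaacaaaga
AK084349: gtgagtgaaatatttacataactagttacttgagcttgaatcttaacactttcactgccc
AK038242: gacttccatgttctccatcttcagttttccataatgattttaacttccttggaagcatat
AK017529, first probe: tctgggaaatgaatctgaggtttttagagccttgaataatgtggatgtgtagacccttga
AK017529, second probe: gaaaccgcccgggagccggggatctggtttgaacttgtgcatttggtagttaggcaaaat
AK032756: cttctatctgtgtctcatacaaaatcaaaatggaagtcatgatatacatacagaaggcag
AK048015: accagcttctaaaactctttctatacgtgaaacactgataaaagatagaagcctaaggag

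A pair of clones without a curated probe nearby went the other way and were seen at passage 5 only. AK084193 lies at chr19:42975289-42975348 and AK051975 at chr12:120466282-120466341, both on the minus strand.
AK084193: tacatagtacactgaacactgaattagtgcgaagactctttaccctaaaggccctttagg
AK051975: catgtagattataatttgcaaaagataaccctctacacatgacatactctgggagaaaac

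Clone probes were short of G and C, with a median GC content of 35% against 43.3% for NM_ probes. AATAAA or its commonest variant ATTAAA stood in 10.9% of clone probes (730 of 6696) and in 6.67% of NM_ probes (1741 of 26083), read on the printed strand of the probe only. Among clone probes at least 2-fold higher at passage 20 the share was 8.45% (31 of 367), and among those at least 2-fold lower 10.4% (5 of 48). A match describes the letters of the probe and not a poly(A) site in use.

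All levels below are log2 signals relative to the 75th percentile of the array's gene probes, so that 0 is that percentile, and each difference is passage 20 minus passage 5. A probe counts as detected where the scanner software marks it well above background. Over all gene probes, detection was 45.5% on the passage 5 array and 46.1% on the passage 20 array. The arrays shared a slide and a scan, and their number limits the precision. Error between spots can be read from repeat spots: over 26 probes with at least 8 spots and a level below 0 at passage 5, the median SD of the difference between spots was 0.10. Repeat spots share the array and the labelled RNA, so this SD does not hold error of labelling or hybridization between the arrays. The 7 external spike-in probes above background differed by 0.21 after scaling, so that scaling to them instead lowers every difference by that amount, and the median of all gene probes becomes -0.12 in place of 0.09. Of the marker genes, 7 of 8 for hepatoblasts (all but Dlk1) and 4 of 4 for bile duct cells were detected on at least 1 array. None was detected for hepatocytes (0 of 4, Alb among them), endothelium (0 of 4) and red cells (0 of 3). Gpc3, a hepatoblast marker, was detected at passage 5 alone and was at least 9.49-fold lower at passage 20, and Epcam was 2.24-fold lower. The remaining detected hepatoblast markers differed by less than 2-fold. Among the bile duct markers Spp1 was 6.83-fold higher, while Krt19, Krt7 and Sox9 were lower by 1.43-fold, 1.32-fold and 1.43-fold. Fibroblast markers had 2 of 7 detected, with a summed signal relative to the 75th percentile of 28.9 and then 25.4; Acta2 makes up nearly all of it, and Dcn, detected at passage 5 alone, was at least 15.9-fold lower at passage 20. Mesothelial markers had 3 of 3 detected, with sums of 159 and 221 carried by Msln, while Wt1 and Upk3b were detected at passage 5 alone and were at least 2.02-fold and 4.34-fold lower.

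Clone probes were detected far less often than NM_ probes, and more of them at passage 20. At passage 5, 811 clone probes (12.1%) were detected, and at passage 20, 1183 (17.7%). NM_ probes went from 15373 (58.9%) to 15091 (57.9%). Detection on both arrays held for 672 clone probes; 511 were detected at passage 20 alone, 139 at passage 5 alone and 5374 on neither array. Among NM_ probes detected on 1 array only, the order was the opposite, with 849 at passage 5 only and 567 at passage 20 only. The share of clone probes was larger at passage 20 on each of the 19 chromosomes, running over the chromosomes from 8.06% to 20.6% at passage 5 and from 14.9% to 23.0% at passage 20.

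**Figure D1:**
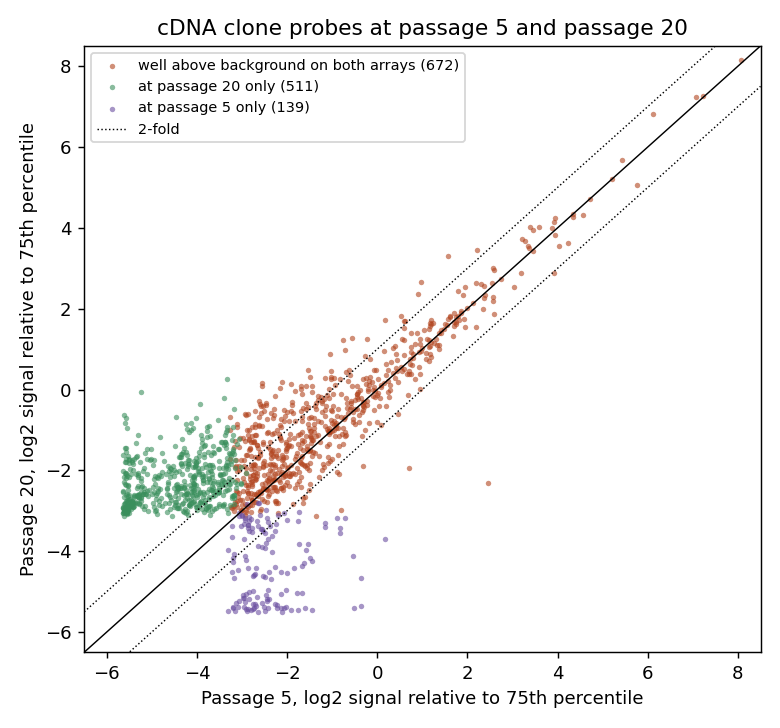
Level of each clone probe at passage 5 (horizontal) and passage 20 (vertical), as log2 signal relative to the array's 75th percentile; colours show on which array a probe was well above background, the solid line marks equality and the dotted lines 2-fold. The 511 probes seen at passage 20 only outnumber the 139 seen at passage 5 only, and bright probes lie near the line.

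Levels of the clone probes were low, and most of their differences were positive. Over the 672 detected on both arrays, the median level was -1.51 at passage 5 and -0.95 at passage 20, while that of NM_ probes was 0.75 and 0.77. The median difference was 0.25 (interquartile range -0.07 to 0.82), and 469 of 672 (69.8%) were above 0. For NM_ probes the median difference was 0.08, with 58.7% above 0, and for the other gene probes on these chromosomes it was 0.15. The sign of the clone median depends on the scaling: it was 0.03 with the spike-ins and -0.06 with each array's median, where the NM_ median was -0.13 and -0.23. The gap between the classes was 0.17, which a constant per array cannot change; it was 0.21 with normexp, 0.13 with loess and 0.03 with no filter on dim probes.

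**Figure D2:**
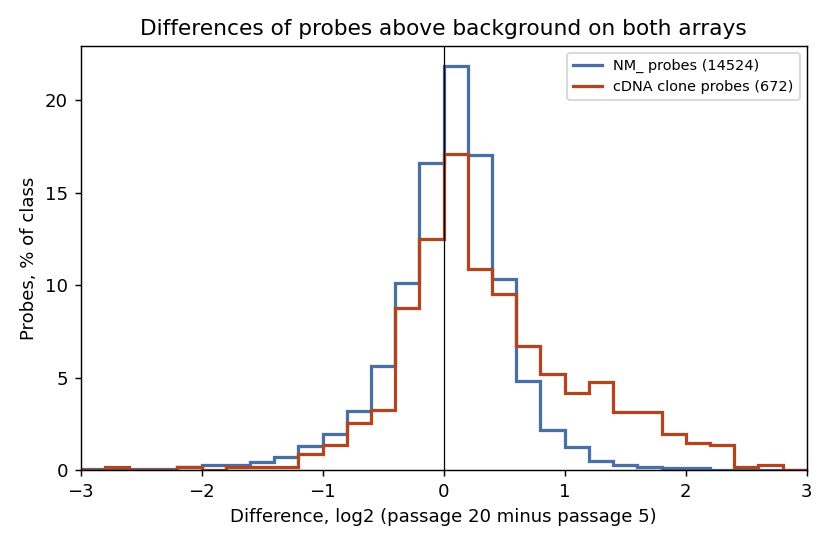
Distribution of the difference between passages (log2, passage 20 minus passage 5, bins of 0.2) for clone probes and NM_ probes detected on both arrays, as percent of each class. The clone probes have a longer right shoulder and a median of 0.25 against 0.08; 1 clone probe and 34 NM_ probes lie outside the axis.

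For a probe detected on 1 array only, the difference is a bound: the brighter level minus the probe's level on the dim array or the lowest level detected there, whichever is higher (-3.32 at passage 5, -3.17 at passage 20). With bounds included, 1322 clone probes were measured, of which 367 (27.8%) were higher by 2-fold or more at passage 20 and 48 (3.63%) were lower by as much. Among all gene probes measured the shares were 5.77% and 4.71%, and among NM_ probes 3.32% (529 of 15940) and 4.99% (795). Thus 88.4% of the clone probes that differed were higher at passage 20, against 40% of the NM_ probes; with each array's median as the scale these shares were 72.4% and 14%, and NM_ probes gave 19.4% with the spike-ins, 24.5% with loess and 28.4% with quantile normalization. A probe that was measured only through the passage where it was bright could go no other way, and 230 of the 367 and 36 of the 48 rest on such bounds. Detected on both arrays were 137 of the higher and 12 of the lower ones. At 4-fold the counts were 62 (4.69%) and 14 (1.06%), beside 0.877% and 0.996% of all gene probes and 0.364% and 1.07% of NM_ probes. The probes nearest to the threshold were AK088506 with 1.03 and AK011526 with 0.99.

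The positive differences were found mainly in dim clone probes. Over probes detected on both arrays, the median difference of clone probes was 0.28 at mean levels below -2 (195 probes), 0.55 from -2 to -1 (187 probes) and 0.23 from -1 to 0 (124 probes). It was 0.04 from 0 to 1 (66 probes) and 0.06 at 1 and above (100 probes). NM_ probes of the same levels had medians of 0.15, 0.07, 0.06, 0.06 and 0.08. At -2 to -1, 61 of 187 clone probes (32.6%) were at least 2-fold higher and 4 lower, while 105 of 1973 NM_ probes (5.32%) were higher and 116 lower. At 1 and above, 7 of 100 clone probes (7%) were higher and 1 lower, while 82 of 6663 NM_ probes (1.23%) were higher and 151 lower. The share of higher probes was thus larger for clone probes than for NM_ probes at this level too.

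GC content moved with the differences as well. Clone probes with up to 35% GC had a median difference of 0.31, those over 35 to 40% 0.31, those over 40 to 45% 0.24 and those over 45% 0.06. The medians of NM_ probes in these bands were 0.12, 0.12, 0.09 and -0.04. Detection of clone probes went from 7.25% to 13.1% in the lowest band and from 38% to 36.0% in the highest. Within each band the clone median lay above the NM_ median; the part of GC content and of level in the result was not tested.

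**Figure D3:**
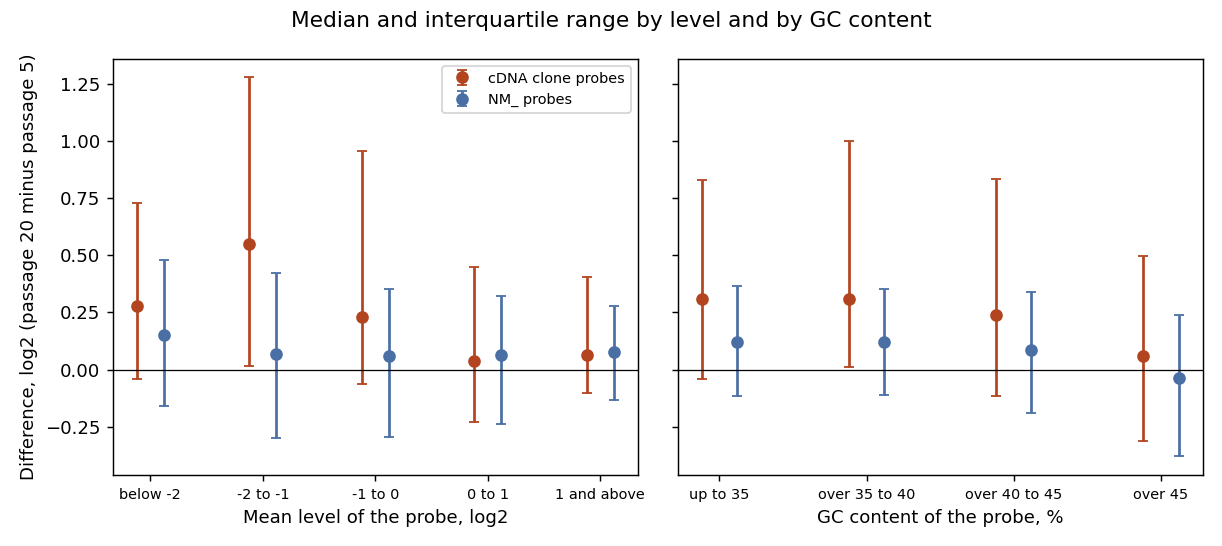
Median difference (points) and interquartile range (bars) of clone probes and NM_ probes detected on both arrays, by mean level (left) and by GC content of the probe (right). The clone probes stand above the NM_ probes mainly below a level of 0, with 0.55 against 0.07 at -2 to -1.

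Differences were largest in clone probes far upstream in their genes. Of the 1949 clone probes on the strand of a same-named NM_ probe, 912 lay more than 10 kb to its 5′ side, that is upstream in the direction of transcription. Detection among these 912 was 12.7% at passage 5 and 21.9% at passage 20. Of 222 measured, 89 (40.1%) were at least 2-fold higher and 8 lower. Bounds, whose direction the detected array fixes, made up 48 of the 89 and 7 of the 8. The 94 detected on both arrays had a median difference of 0.85, with 41 at least 2-fold higher and 1 lower. Of 477 probes within 10 kb on the 5′ side 148 were measured, 35 higher (14 by bounds) and 5 lower (2 by bounds), and the median was 0.33. The 560 probes 3′ of the NM_ probe were detected most often (35.2% and 40.4%), and 27 of 234 measured (11.5%) were higher and 7 lower. Bounds made up 16 of the 27 and 1 of the 7. The median difference of the 3′ probes was 0.03, and it was -0.19 with the spike-ins and -0.07 with quantile normalization. The split at 10 kb and the finer bands were chosen after the values were seen.

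The finer bands show the same order. The median was 0.74 for probes over 50 kb to the 5′ side, 0.93 for 10 to 50 kb, 0.45 for 2 to 10 kb and 0.14 within 2 kb. On the 3′ side it was 0.03 within 2 kb, 0.01 at 2 to 10 kb and 0.05 over 10 kb. In the 4 GC bands, from low to high, probes over 10 kb to the 5′ side had medians of 0.82, 1.08, 0.57 and 0.49, while those 3′ of the NM_ probe had 0.03, 0.03, -0.09 and -0.10. At mean levels below -2 and at -2 to -1 the medians were 0.67 and 1.23 on the far 5′ side and 0.05 and 0.15 on the 3′ side. Bands of the highest levels held few far 5′ probes, and the part of level and GC content was not tested. Without a filter on dim probes the medians were 0.27 on the far 5′ side and 0.16 on the 3′ side. A further 117 clone probes lay on the strand opposite to the same-named NM_ probe; of 22 measured, 4 were higher and 0 lower, and the median was -0.06.

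**Figure D4:**
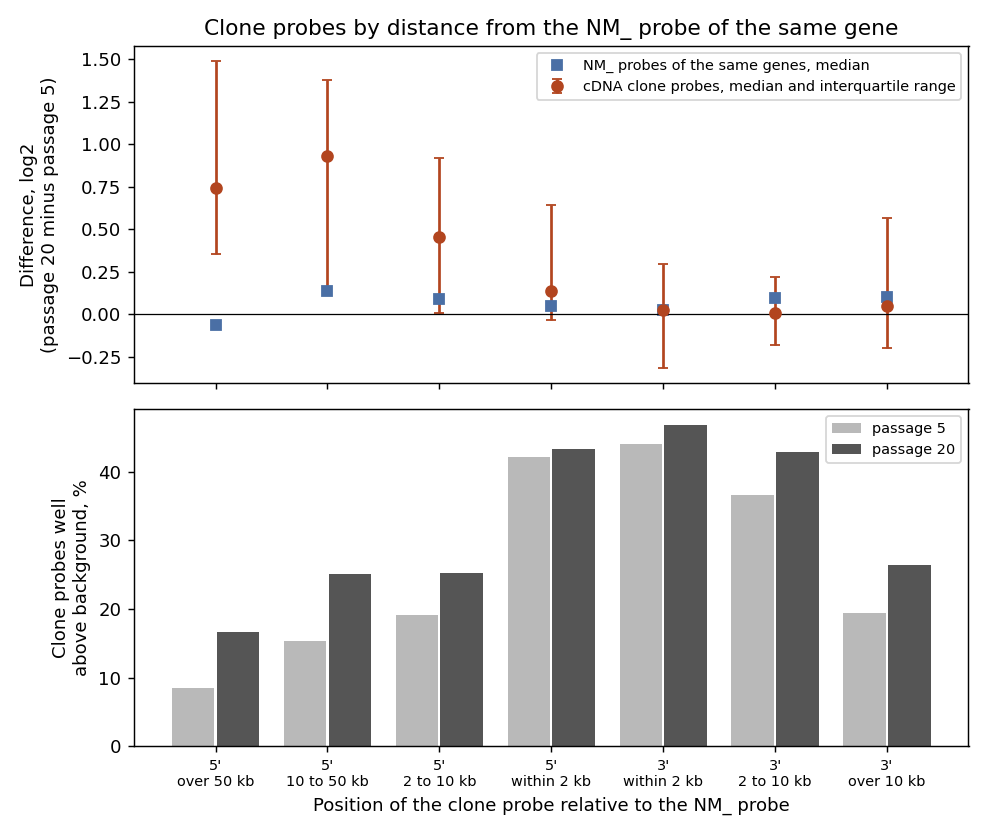
Top: median difference (points) and interquartile range (bars) of clone probes by their position relative to the NM_ probe of the same gene, with the median of those NM_ probes as squares. Bottom: percent of clone probes detected at each passage; the median falls from 0.93 at 10 to 50 kb on the 5′ side to values between 0.01 and 0.05 on the 3′ side.

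The NM_ probes of the same genes mostly differed less. In 77 pairs with both probes detected on both arrays and the clone probe over 10 kb to the 5′ side (74 genes), the median difference was 0.95 for clone probes and 0.11 for NM_ probes, and the clone probe had the higher difference in 63. Of the 89 higher clone probes of this kind, 83 had a measured NM_ probe, of which 5 were at least 2-fold higher and 0 lower. In 95 pairs within 10 kb the medians were 0.37 and 0.07. In 158 pairs with the clone probe on the 3′ side they were 0.03 and 0.08, and the clone probe had the higher difference in 66. Across pairs, which are not independent replicates and share 2 arrays, Pearson's r was 0.44 on the 3′ side and -0.08 on the far 5′ side.

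**Figure D5:**
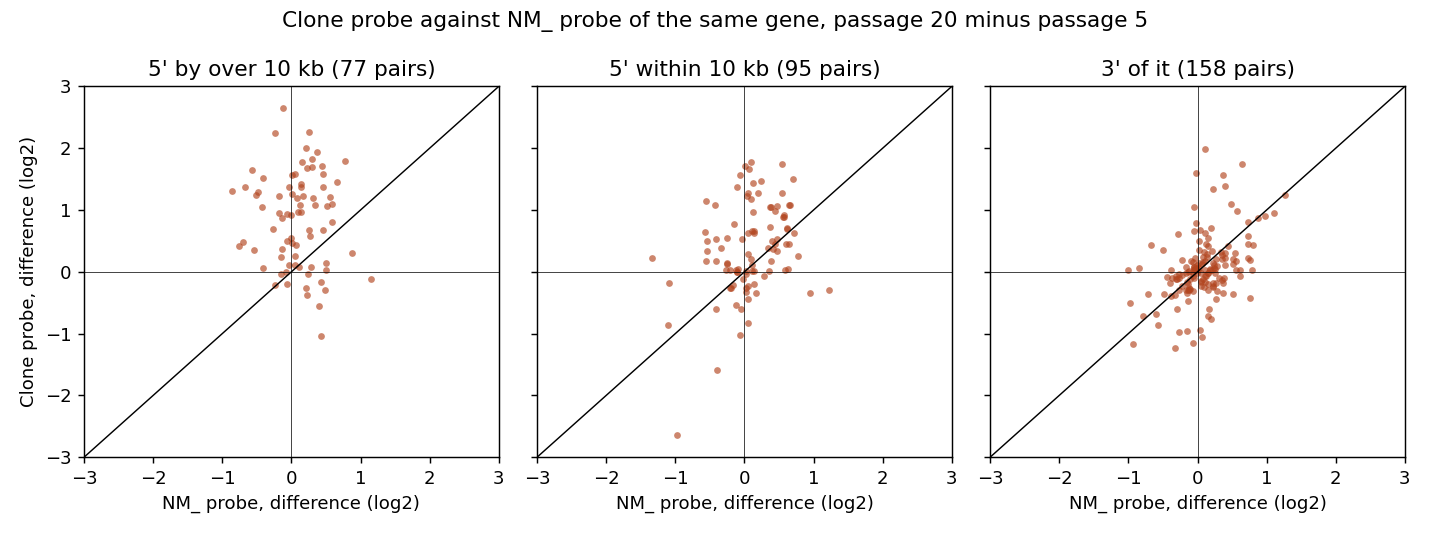
Difference of the NM_ probe (horizontal) against that of the clone probe of the same gene (vertical), log2, for pairs detected on both arrays, by position of the clone probe; the line marks equality. On the far 5′ side 63 of 77 pairs lie above the line, on the 3′ side 66 of 158.

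Position was also compared among NM_ probes of 1 gene. In genes with several NM_ probes detected on both arrays, the most 5′ minus the most 3′ probe had a median difference of -0.02 where they lay up to 2 kb apart (1467 genes) and 0.02 at 2 to 10 kb (1166 genes). It was 0.07 at 10 to 50 kb (743 genes, 417 above 0) and 0.25 over 50 kb (179 genes, 117 above 0). The like measure for clone probes is the clone probe minus the NM_ probe of the same gene, both detected on both arrays. Its median was 0.86 for clone probes at 10 to 50 kb to the 5′ side (60 pairs) and 0.96 over 50 kb (17 pairs).

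By position alone, without names, clone probes with an NM_ probe within 10 kb on the same strand (1843) had a median difference of 0.16, and 104 of 584 measured were higher and 22 lower. Those whose nearest NM_ probe lay at 10 to 100 kb (3128) had a median of 0.51, with 212 of 551 higher and 15 lower. The 1324 without an NM_ probe within 100 kb were the least often detected, 2.95% at passage 5 and 6.87% at passage 20, and had a median of 0.42 over the 17 detected on both arrays, of which 4 were at least 2-fold higher and 0 lower. With bounds, whose direction the detected array fixes, 44 of 113 were higher and 10 lower. Of the higher and lower probes within 10 kb on the same strand, 48 and 11 rest on bounds. At 10 to 100 kb it was 137 and 14. Clone probes facing an NM_ probe on the opposite strand only (401) had 7 of 74 higher and 1 lower, with 5 and 1 by bounds. Of 341 pairs with any NM_ probe within 10 kb on the same strand, both probes were higher at passage 20 in 159 and both lower in 65; most probes of either class were higher, and no test of agreement was made.

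Differences also varied with how the clone was described. Among 4479 unclassifiable clones 222 of 703 measured were higher (31.6%) and 28 lower (3.98%). Over all gene probes measured the shares were 5.77% and 4.71%. Of the 222 and the 28, 153 and 24 rest on bounds, whose direction the detected array fixes. The median of the unclassifiable clones was 0.38, and their detection went from 8.17% to 13.9%. Clones described as similar to or a homolog of a known protein had 31 of 145 higher and 10 lower, with a median of 0.06. Bounds made up 19 of the 31 and 7 of the 10. Hypothetical products had a median of 0.20 and named products 0.23. Clones named by accession only had 160 of 471 higher and 17 lower (median 0.50). Clones that carry the symbol of an NM_ probe had 151 of 604 and 18 (median 0.15). Bounds made up 116 of the 160 and 16 of the 17, and 79 of the 151 and 8 of the 18. By the stage of the source library, medians were 0.34 for embryonic, 0.31 for neonatal and 0.17 for adult libraries. By its tissue, among those with over 30 probes detected on both arrays, they ran from 0.07 for gut and pancreas (31 probes) to 0.42 for blood and immune cells (89 probes). Liver libraries had given only 53 of the probes, of which 10 were measured, 3 higher (2 by a bound) and 1 lower (0 by a bound). Blood and immune libraries gave 950, with 66 of 197 higher and 2 lower. Bounds made up 43 of these 66 and both lower ones. Of the leukocyte marker genes, Ptprc and Adgre1 were not detected on either array and 2 of 4 were. The summed signal of the 4 genes relative to the 75th percentile was 3.70 at passage 5 and 9.18 at passage 20. Cd14 made up most of that sum (3.21 and 8.56), beside Cd68 at 0.44 and 0.56. The part of these markers in the result was not tested.

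Of the 10 clone probes with the largest positive differences, 7 had a same-named or nearest NM_ probe on their strand that differed by no more than 0.29 in either direction. AK045692, unclassifiable and 38.4 kb from the nearest NM_ probe on its strand (Lmo7, 0.28), had levels of -2.55 at passage 5 and 0.15 at passage 20, a 6.51-fold difference. AK036508 carries the name of the orphan nuclear receptor gene Nr2c2 and lies 58.3 kb 5′ of its NM_ probe; it went from -2.56 to 0.08 (6.26-fold), while the NM_ probe differed by -0.12. Clone 9530029O12Rik (AK035394) went from -3.26 to -0.67. The other 7 of the 10 largest differed by 2.26 to 2.32. AK041653 of the centriole gene Stil is among them, at -2.62 and -0.30, with its NM_ probe detected on neither array. AK051853 of Sipa1l1, a GTPase-activating protein for Rap, had -3.12 and -0.86 against 0.26 for the NM_ probe 52.0 kb away. At D5Ertd579e the NM_ probe was detected at passage 20 alone, with a bound of 1.12 beside the clone's 2.27. The rest are AK039096, AK033087 near Glis3, AK041551 and AK088646.

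Among clone probes seen at passage 20 only, the largest bound was that of AK049762, at least 11.97-fold higher, with levels of -3.34 and 0.26 and no NM_ probe of its strand within 100 kb. AK143763 of Exosc5, a subunit of the RNA exosome, was at least 9.65-fold higher, while the NM_ probe 4.14 kb away differed by -0.02. AK052617 was at least 8.60-fold, AK052336 of the actin-linked adaptor gene Sorbs2 at least 7.77-fold and 2410006F04Rik at least 6.52-fold higher. Of these 5 only Sorbs2 had an NM_ probe that differed at least 2-fold in the same direction, by 1.03.

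Clone probes lower at passage 20 were fewer. Of 20 on the strand of a same-named NM_ probe, 15 had that probe measured, and 2 of these were at least 2-fold lower too; of 151 higher ones it was 10 of 141. The largest negative difference was in AK077026 of the sodium-proton exchanger gene Slc9a2, with a level of 2.46 at passage 5 and -2.31 at passage 20, 27.3-fold lower; the NM_ probe 4.63 kb away was detected on neither array. AK147019 of Leng9 went from 0.70 to -1.94, and its NM_ probe differed by -0.97. AK050325 overlaps the probe of Aqp9, a glycerol and water channel of hepatocytes, and went from -0.81 to -2.97 while the Aqp9 probe, detected at passage 5 alone, had a bound of -2.27. AK122570 of Lgi2 differed by -1.78, beside an NM_ probe with a bound of -1.29. The other 6 of the 10 largest, in Zswim8, Lysmd3, Snrpd3, Klhl24, Vps51 and Csnk1a1, differed by -1.59 to -1.05.

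The largest bounds in the lower direction were those of AK002661 of Gstk1, a glutathione transferase, at least 10.2-fold lower, and AK018789 of the neurotrophin receptor gene Ntrk2, at least 7.04-fold lower; its NM_ probe was also detected at passage 5 alone, with a bound of -2.30. AK019026 of Cul9 was at least 7.01-fold, AK084193 at least 6.26-fold and AK051975 at least 6.24-fold lower. The last 2, shown above, had levels of -0.53 each at passage 5 and of -5.41 and -4.13 at passage 20.

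Neighbouring clone probes that differed at least 2-fold in the same direction were nearly all higher ones. There were 28 loci of at least 2 higher clone probes, each within 100 kb of the next, holding 61 probes. There were 0 loci with 2 lower ones. Of the 28, 5 loci held 3 probes, which can span over 100 kb, and in 24 all probes were on one strand. The count of higher loci was 12 with normexp background correction, 16 with each array's median as the scale and 6 among probes detected on both arrays. With the spike-ins it was 19. There was 1 lower locus with the spike-ins, the median, quantile normalization, loess or the authors' values. The lower probes are fewer, 48 against 367, and probes of a locus can lie in the same RNA, so the members of a locus are not independent.

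The probes along Mbnl1 span 60335480 to 60422694 on chromosome 3 and lay 97.5, 87.4 and 10.4 kb 5′ of the NM_ probe. AK088871 had levels of -4.12 and -0.82, AK084349 of -5.11 and -1.47, and AK038242 of -4.26 and -1.82, at passage 5 and passage 20. All 3 were seen at passage 20 only, with bounds of 2.50, 1.85 and 1.5, while the NM_ probe differed by 0.32. At Sf3b3 the second probe of AK017529 had levels of 0.97 and 2.66 and the first -0.56 and 1.27, both detected on both arrays, and differed by 1.69 and 1.83 against 0.30 for the NM_ probe 35.4 and 34.6 kb away.

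Both Sorbs2 clone probes (AK084625 and AK052336) had bounds of 2.10 and 2.96. At Nrg1, which encodes the ErbB ligand neuregulin, AK085203 and AK083943 had bounds of 2.38 and 2.27, and the NM_ probe of that name 4.21 kb away differed by 0.80. At Ppp6r3, a regulatory subunit of protein phosphatase 6, AK018652 and AK129392 differed by 1.43 and 1.37 against 0.14. The clones AK079202, AK050573 and AK089002, on the strand of the histone demethylase gene Jmjd1c and 111.7, 83.5 and 11.3 kb from its NM_ probe, had values of 1.62, 1.54 and 1.46, with that NM_ probe detected on neither array. The loci of 3 also include Srek1 with 2 probes of Erbb2ip (1.5, 1.08 and 1.41), Neurl3 with AK054094 and Kansl3 (1.48, 1.78 and 1.05), and Zfp266 with AK087326 and AK080390 (1.85, 1.57 and 1.87). The NM_ probes of Erbb2ip and Kansl3 differed by -0.43 each, opposite to their clone probes. The remaining loci hold pairs, among them Enah, Lpp, Rai14, Chchd3, Polr3a with Rps24, and AK034071 with AK085234 near Cxadr, with values from 1.02 to 2.96 over all 28 loci.

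Accessions with a pair of probes were a check within a clone. Of 69 such accessions 9 had both probes measured, and in 7 both differed in the same direction. Among the 7, the probes of Gm5085, AK087326, Rapgef5 and, at their ends, AK054546 overlap in position, so they are not separate checks. In the pairs of Puf60 and Heca a probe has only a bound, whose direction the detected array fixes. The probes of AK164568 of the amino acid transporter gene Slc38a2 differed by 0.70 each, while those of AK137406 of the transcription factor gene Yy1 differed by 0.26 and -0.13.

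Among pairs with both probes detected on both arrays, the 5 clone probes that departed most from an NM_ probe within 10 kb on the same strand were near Mtdh, Rpe, Cdc42ep5, Hnrnpc and Nt5dc1. 9930017N22Rik went from -1.89 to -0.32 while Mtdh, 2.23 kb away, differed by -0.66. AK077927 went from -2.16 to 0.03 beside Rpe at 0.04. D930017J03Rik and AK011803 differed by 1.87 and 1.84 beside Hnrnpc at -0.09 and Nt5dc1 at -0.06. The clone of Leng9, near Cdc42ep5, is the only one of the 5 that was lower at passage 20, by -2.64 against -0.61.

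The brightest clone probes reported here were within 2-fold. AK012052 of the ribosomal protein gene Rps19 had levels of 8.08 and 8.16. AK186686, which overlaps the probe of Rpl15, had 7.07 and 7.23. Gm9757 (AK016943) at 6.12 and 6.82 and Nudc (AK146323) at 5.44 and 5.68 follow.

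Of the 336 clone probes with the symbol of a RefSeq long non-coding RNA gene, 26 (7.74%) were detected at passage 5 and 34 (10.1%) at passage 20. With bounds, 8 of 41 measured were higher (19.5%) and 2 lower (4.88%). The shares were 27.8% and 3.63% for all clone probes and 5.77% and 4.71% for all gene probes. Detected on both arrays were 3 of the 8 and 0 of the 2. The 19 detected on both arrays had a median of 0.32. Of a list of well-known long non-coding RNAs, few were detected. Snhg1, host of small nucleolar RNAs, was detected on both arrays at -2.37 and -1.99. Of 3 Airn probes, 2 were seen at passage 20 only, AK032756 with levels of -3.90 and -1.93 and AK048015 with -3.50 and -1.76, giving bounds of 1.39 and 1.56; AK079989 was detected on neither array. The clone probes of H19, Mirg, Sox2ot, Pvt1 and Dleu2 were also detected on neither array.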

How the data were processed

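Per the labels, total RNA was amplified and labelled in 1 colour (Cy3) for Agilent arrays. Agilent Feature Extraction 10.7.3.1 gave the intensity of each spot after background subtraction and detrending, per the file headers. The mean and local background intensity, also deposited, served an alternative only. The authors' deposited table of log2 values has a median of 6.31 on each array and equal sorted values within 0.000609, which is what quantile normalization gives; its tool is not named in the labels or headers, and it served as an alternative.

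Control spots and 132 spots with an outlier flag on either array were dropped, log2 signals were averaged per probe, and the 75th percentile of 41158 gene probes was subtracted on each array (signals of 1085 and 853). No gene spot was saturated (0 spots). Positions are those of the files, in mm9; exon, intron and UTR context was not used here. RefSeq names are those of GRCm38.p6. The steps were tested on simulated data. Python 3.11.15, pandas 2.3.3, R 4.3.3 and limma 3.58.1 (normexp with offset 50, quantile, loess) were used.

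The probes and lists were chosen with earlier results of these data known. Named probes are the 10 largest differences each way among those detected on both arrays, the 5 largest bounds each way and the 5 brightest. Also named are loci of at least 2 probes, each within 100 kb of the next, and listed long non-coding RNAs. The 5 departing most from an NM_ probe within 10 kb were named too. Probe pairs of 1 accession were named after their values were seen. One probe that this rule takes is not reported here.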

Additional observations from a re-analysis of the deposited data

Results flagged for a closer look

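Clone probes outside chromosomes 1 to 19, which no comparison above uses, also gave signal. Of 314 such probes, mostly on the X chromosome, the passage 5 array had 41 well above background and the passage 20 array 50. Of 58 measured, 8 (13.8%) were higher by 2-fold or more at passage 20 and 5 (8.62%) lower by as much. Bounds made up 3 of the 8 and 2 of the 5. The shares were 27.8% and 3.63% for clone probes on chromosomes 1 to 19, and 5.77% and 4.71% for all gene probes. The median difference of the 33 detected on both arrays was 0.06. The largest were E430013K19Rik, at least 8.92-fold higher, and a clone of the chromatin protein gene Phf6, 4.21-fold higher.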

How the results depend on the processing

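No paired analysis was possible because each passage has 1 array. Keeping flagged spots, asking that all spots of a probe pass, or using 1 probe per accession changes few probes and gave detection shares of 12.1% to 12.2% at passage 5 and 17.7% at passage 20; with the weaker mark of signal significantly above background they were 39.9% at passage 5 and 56.7% at passage 20. The count of higher clone probes stayed between 280 and 367 in 8 alternatives. It was 241, with 92 lower, with each array's median as scale, 137 and 12 with detection on both arrays, 1619 and 229 without a filter, 595 and 112 at 1.5-fold, and 62 and 14 at 4-fold. The lower count alone moved to 16 with normexp and to 73 with cyclic loess, which was chosen after seeing the data. The corresponding NM_ counts were 228 higher and 1405 lower with the median, 371 and 534 with detection on both arrays, 1555 and 1482 without a filter, 292 and 450 with normexp and 329 and 1012 with loess. The clone median difference was -0.064 with the median scale, 0.035 with the spike-ins and 0.11 with loess. Its gap to NM_ probes lay between 0.13 and 0.21 in 10 alternatives and was 0.028 without a filter. Scaling by a constant per array, or asking for detection on both arrays, cannot change this gap, so several of the 10 could not move it. Far 5′ probes had medians of 0.69 with normexp, 0.54 with the median, 0.64 with the spike-ins, 0.74 with loess and 0.27 without a filter. For 3′ probes these were -0.29 with the median, -0.19 with the spike-ins, -0.10 with loess and 0.16 without a filter. The higher loci numbered 12 with normexp, 16 with the median, 6 with detection on both arrays and 227 without a filter, and 19 to 28 in the other 7 alternatives run. Of 93 named probes with at least a 2-fold difference, 62 kept it under all 7 scalings and 0 reversed. A bound cannot reverse, because the detected array fixes its direction. The other named probes were picked for a difference of at least 2-fold. The 0 therefore says little about stability. The cause of the shifts between alternatives was not tested. Most clone probes (5374 of 6696) missed the stricter mark used for detection at both passages, so their true differences are not measured here.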
